A study of Caenorhabditis elegans with 8 samples.

Results

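The effect of the β-tubulin allele mec-7(u278) in animals that lack mbl-1 was read from 2 strains, mec-7(u278) mbl-1(tm1563), called the double mutant below, and mbl-1(tm1563), with 2 libraries each. These 4 libraries were taken by strain label from 16 libraries of 8 strains. RNA came from whole Caenorhabditis elegans cultures labelled as the L4 larval stage, grown from synchronized L1 larvae on OP50 bacteria. Both strains carry the mbl-1 deletion allele tm1563, which removes an exon found in every mbl-1 isoform, and the reporter uIs115, in which the mec-17 promoter drives a red fluorescent protein in the touch receptor neurons (TRNs). They differ by label only in mec-7(u278), a missense allele that gives very stable microtubules and an extra neurite on a TRN. The strains mec-7(u278) and WT, both mbl-1(+) and with the same reporter, are used where the effect is set beside its counterpart in mbl-1(+) animals. No source states whether the strains were outcrossed to the same degree.

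The worm senses gentle touch with a few mechanosensory neurons whose axons are filled with unusually large microtubules, built from the α-tubulin MEC-12 and the β-tubulin MEC-7. The transcription factors UNC-86 and MEC-3 switch on the genes of this cell type, among them the tubulins, the tubulin acetyltransferase MEC-17, and the channel subunits MEC-4 and MEC-10. MBL-1 is the worm Muscleblind, an RNA-binding protein that regulates splicing in neurons and muscle.

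Levels are given as CPM, the counts of a gene per 1000000 counts of its library, scaled by TMM over all 8 libraries used. The gene counts summed to between 22603580 and 22703448 in the 4 libraries of the comparison, so depth differed little. The mbl-1 deletion leaves part of the gene in place, so the gene total does not check the label. The small transcript K02H8.5, which lies inside mbl-1, separated libraries with tm1563 from mbl-1(+) libraries, but not the compared strains. It was picked after its values were seen, so it is no independent check of the label. It had 11 and 15 counts in the double mutant and 10 and 20 counts in mbl-1(tm1563), against 0 counts in all 4 libraries of mec-7(u278) and WT. The allele u278 changes a base, so no count checks it.

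The 4 libraries were not at one point of development, and this touches every result below. The major sperm proteins (msp genes), made by the L4 germline, summed to 5946 and 3563 CPM in the double mutant and to 1432 and 14.02 CPM in mbl-1(tm1563). The 6 vitellogenins, yolk proteins that the intestine of the adult makes, summed to 34400 and 21096 CPM in the double mutant and to 13706 and 396 CPM in mbl-1(tm1563). Oocyte and eggshell genes summed to 5551 and 4036 CPM in the double mutant, against 1799 and 263 CPM in mbl-1(tm1563). The molting list, genes that peak as a new cuticle is made, ran the other way, with 350 and 2121 CPM in the double mutant and 3278 and 7035 CPM in mbl-1(tm1563). Both double mutant libraries therefore lay on the later side of both mbl-1(tm1563) libraries in each of these lists. Genotype and timing cannot be told apart in this comparison for any gene that varies with them.

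**Figure D1:**
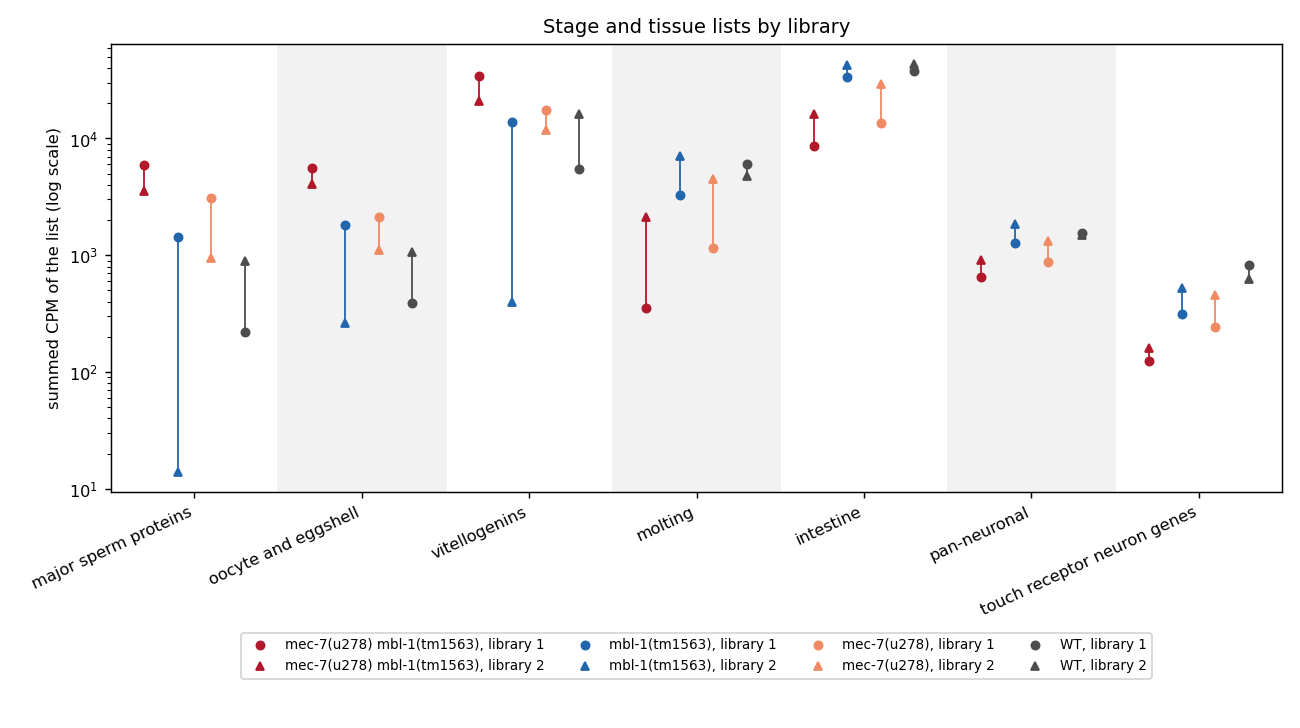
Summed CPM of 7 gene lists (log axis) in each library of the 4 strains, with circles for library 1, triangles for library 2 and a line joining the pair. For the major sperm proteins the double mutant libraries are at 5946 and 3563 CPM and the mbl-1(tm1563) libraries at 1432 and 14.02 CPM, and the TRN genes lie in the opposite order.

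No gene passed an adjusted p of 0.05 in edgeR's quasi-likelihood test of the double mutant against mbl-1(tm1563), over 15086 genes tested. The lowest adjusted p was 0.308. An unadjusted p under 0.05 was reached by 2293 genes (15.2% of those tested), 1200 of them higher in the double mutant (7.95%) and 1093 lower (7.25%). That is 52.3% on the higher side, where DESeq2 had 3524 genes at that threshold with 64.3% on the higher side. DESeq2's Wald test called 191 of 15950 genes at an adjusted p under 0.05 (1.2%), 129 of them higher (0.809%) and 62 lower (0.389%). The spread between libraries of a strain was wide, with a biological coefficient of variation of 0.591. The number of calls depended on the test and on the libraries kept. A fit without 1 library leaves 1 library in a strain, whose spread is then taken from the other strain. In 76.4% of the tested genes both double mutant libraries lay on the same side of both mbl-1(tm1563) libraries, and non-overlap of the groups is therefore the usual case here.

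TRN genes were lower in the double mutant than in mbl-1(tm1563). Of the 20 tested TRN genes, 10 were lower and 1 higher at an unadjusted p under 0.05 (7.25% and 7.95% of all tested genes). The TRN median log2 fold change was -1.53, where the median over all tested genes was 0.02. In 17 of the 20 TRN genes both double mutant libraries lay below both mbl-1(tm1563) libraries (37.6% of all tested genes), and in 1 above (38.8%). DESeq2 called 3 of the 20 lower, mec-1, mec-10 and mtd-1, against 0.389% of all genes. In bulk RNA, fewer cells of a type and less RNA per cell cannot be told apart. The TRN sum was lowest in the library with the highest msp sum and highest in the library with the lowest msp sum, at 124 and 161 CPM in the double mutant and 312 and 525 CPM in mbl-1(tm1563), and the part of timing in the TRN levels was not tested.

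mec-7 itself, which encodes the β-tubulin changed by u278, had 4.24 and 11.3 CPM in the double mutant and 29.5 and 59.3 CPM in mbl-1(tm1563). The gene lies on chromosome X at 7774856 to 7776689 on the minus strand (WBcel235) and has 5 exons. Its log2 fold change was -2.47 ± 0.68 (SE, edgeR adjusted p = 0.308). The groups did not overlap, but the libraries within each strain differed by more than 2-fold. Over 11 alternative settings its log2 fold change ranged from -3.40 to -1.94 and its adjusted p from 0.048 to 0.656. The α-tubulin partner mec-12 had 16.9 and 31.4 CPM in the double mutant and 82.3 and 161 CPM in mbl-1(tm1563), a log2 fold change of -2.28 ± 0.52 (SE).

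Proteins that act on the TRN microtubules followed the tubulins in direction. mec-17, the α-tubulin acetyltransferase, had 1.41 and 4.96 CPM in the double mutant and 17.1 and 28.8 CPM in mbl-1(tm1563), a log2 fold change of -2.80 ± 0.79 (SE). ptl-1, the worm tau-like microtubule-binding protein, had 4.06 and 7.94 CPM in the double mutant against 21.9 and 34.3 CPM in mbl-1(tm1563), a log2 fold change of -2.18 ± 0.51 (SE). The second acetyltransferase, atat-2, was at 2.14 and 4.33 CPM in the double mutant and at 8.14 and 15.3 CPM in mbl-1(tm1563). For each of these 3 genes the groups were separate, with library 1 the lower of the pair in both strains.

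Among the genes of the mechanosensory channel and its extracellular matrix, the matrix protein gene mec-1 had 5.87 and 9.33 CPM in the double mutant and 29.4 and 49.7 CPM in mbl-1(tm1563) (log2 fold change -2.33 ± 0.44 SE). mec-10, which encodes a subunit of the channel, had 1.38 and 1.94 CPM in the double mutant and 6.81 and 12.63 CPM in mbl-1(tm1563) (log2 fold change -2.50 ± 0.58 SE). The other pore subunit gene, mec-4, gave 1.67 and 3.57 CPM in the double mutant against 5.89 and 9.59 CPM in mbl-1(tm1563), and did not reach an unadjusted p of 0.05. Nor did mec-2, a stomatin-like partner of the channel, with 4.13 and 8.29 CPM in the double mutant and 13.4 and 23.3 CPM in mbl-1(tm1563). mec-5, a collagen of the matrix, had 9.90 and 23.2 CPM in the double mutant and 38.9 and 52.1 CPM in mbl-1(tm1563), also short of that threshold. mec-6, the paraoxonase-like chaperone of the channel, differed from the rest, with 2.65 and 2.02 CPM in the double mutant and 2.35 and 2.24 CPM in mbl-1(tm1563). Its groups overlapped and its log2 fold change was 0.06 ± 0.50 (SE).

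Of the regulators of TRN fate, mec-3 and unc-86 were low in every library of the comparison, while alr-1 reached 19.1 CPM. mec-3, the LIM homeodomain gene that defines the cell type and a splicing target of MBL-1, had 1.05 and 1.23 CPM in the double mutant and 2.12 and 3.68 CPM in mbl-1(tm1563). unc-86, the POU homeodomain gene that acts with it, had 1.31 and 2.698 CPM in the double mutant and 4.37 and 6.56 CPM in mbl-1(tm1563). alr-1, a further homeodomain gene of these cells, had 2.03 and 5.0 CPM in the double mutant against 9.85 and 19.1 CPM in mbl-1(tm1563), with a log2 fold change of -1.995 ± 0.69 (SE). The direction was shared by the 3 regulators, and alr-1 alone of them had an unadjusted p under 0.05.

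mec-15, an F-box protein gene, was the single TRN gene on the higher side at an unadjusted p under 0.05. It had 60.1 and 34.8 CPM in the double mutant and 18.1 and 9.64 CPM in mbl-1(tm1563), a log2 fold change of 1.80 ± 0.52 (SE). Its order over the 4 libraries was that of the msp sum, from the highest in library 1 of the double mutant to the lowest in library 2 of mbl-1(tm1563). The remaining members past that threshold were mtd-1, mec-18 and mec-9, with log2 fold changes of -2.85, -2.55 and -1.54. The members short of it not yet named were unc-24, mec-14 and mec-19, with log2 fold changes between -1.40 and -0.44.

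**Figure D2:**
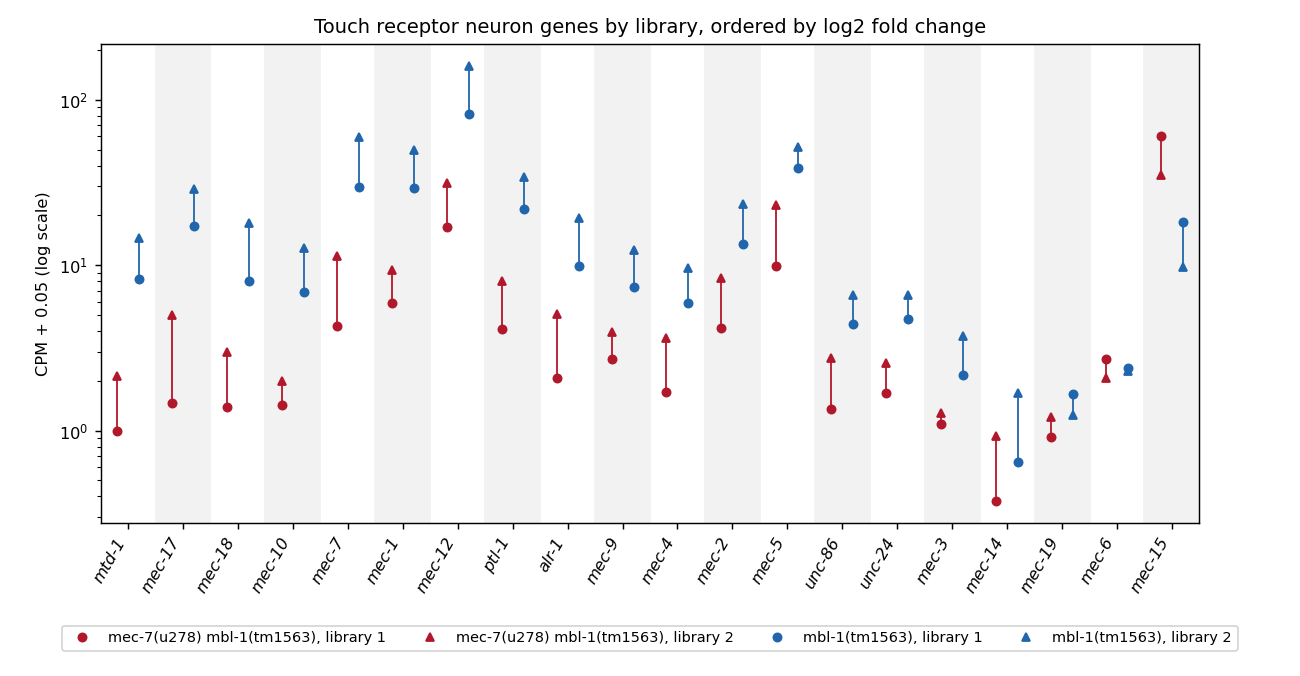
CPM plus 0.05 (log axis) of the 20 TRN genes in the 2 libraries of the double mutant and the 2 of mbl-1(tm1563), ordered by log2 fold change, with circles for library 1 and triangles for library 2. The double mutant pair lies below the mbl-1(tm1563) pair from mtd-1 to mec-3 and for mec-19, overlaps it for mec-14 and mec-6, and lies above it for mec-15.

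The same allele in mbl-1(+) animals gave smaller estimates in these genes. mec-7(u278) against WT shares no library with the comparison above, and edgeR called 3 of its 14710 tested genes at an adjusted p under 0.05 (0.0204%), W01A11.1, F56A4.3 and asp-12, which are described further on. In it 6 of the 20 TRN genes were lower and 0 higher at an unadjusted p under 0.05. Over all 14710 tested genes 383 were lower and 654 higher (7.05% in either direction). The TRN median log2 fold change there was -0.79. mec-7 had 43.7 and 95.5 CPM in the mec-7(u278) strain and 205 and 139 CPM in WT, and mec-12 had 76.9 and 174 CPM in the mec-7(u278) strain and 327 and 237 CPM in WT. For mec-7 the log2 fold change was -1.32 ± 0.45 (SE) there. The difference between the 2 backgrounds was tested as an interaction term over the 8 libraries, and of the 20 TRN genes 0 passed an unadjusted p of 0.05 in edgeR (1.67% of all 15602 genes tested) and 0 were called by DESeq2. The median interaction of the list was -1.15 on the log2 scale. The msp sums were also higher in mec-7(u278), at 3120 and 947 CPM, than in WT, at 220 and 900 CPM, without overlap.

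Tubulins lay mainly on the lower side. Of 16 tubulin genes, mec-7 and mec-12 included, 15 were tested, and 13 had a log2 fold change below 0 and 2 above. At an unadjusted p under 0.05, 4 were lower and 1 higher (7.25% and 7.95% of all tested genes). The tubulin median log2 fold change of -1.06 was -0.70 without library 2 of mbl-1(tm1563). tba-4, a broadly expressed α-tubulin, had 84.2 and 177 CPM in the double mutant and 429 and 333 CPM in mbl-1(tm1563). tbg-1, the γ-tubulin of centrosomes, stood on the other side with 58.7 and 42.7 CPM in the double mutant and 26.9 and 19.1 CPM in mbl-1(tm1563). Of 34 tested microtubule regulators, 8 were lower and 2 higher, with a median of -0.07 that was 0.07 with at least 10 counts in every library. The higher ones were spas-1, the worm spastin, and mei-1, the katanin subunit of the meiotic spindle. spas-1 had 50.2 and 43.7 CPM in the double mutant and 25.6 and 19.9 CPM in mbl-1(tm1563). mei-1 had 45.4 and 41.1 CPM in the double mutant and 25.2 and 18.9 CPM in mbl-1(tm1563).

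Among the lower regulators, unc-51, a kinase of axon growth and autophagy, had 33.03 and 42.8 CPM in the double mutant and 84.7 and 128 CPM in mbl-1(tm1563) (log2 fold change -1.44 ± 0.31 SE). ptrn-1, which binds the minus ends of microtubules, had 31.5 and 42.8 CPM in the double mutant and 69.0 and 101 CPM in mbl-1(tm1563). Of 22 tested kinesin and dynein genes, 4 were lower and 0 higher (7.25% and 7.95% of all tested genes). For unc-104, the kinesin-3 that carries synaptic vesicle precursors, the log2 fold change was -1.27 ± 0.37 (SE).

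Neuronal genes in general were on the lower side as well, so the direction was not that of the TRN genes alone. Of 23 pan-neuronal genes 7 were lower and 1 higher at an unadjusted p under 0.05 (7.25% and 7.95% of all tested genes). The pan-neuronal median was -1.02. egl-21, a carboxypeptidase that processes neuropeptides, had 56.4 and 103.5 CPM in the double mutant and 206 and 323 CPM in mbl-1(tm1563). ida-1, a protein of dense core vesicles, had 42.6 and 78.3 CPM in the double mutant against 147 and 258 CPM in mbl-1(tm1563). Of 30 tested FMRFamide-like peptide genes 9 were lower and 1 higher (median -0.75), and of 11 PVD dendrite receptor genes 2 were lower and 0 higher (median -0.94). No difference between these medians and that of the TRN genes was tested.

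mbl-1 itself was lower in the strain with u278, although both strains carry tm1563. It had 26.6 and 30.4 CPM in the double mutant and 45.8 and 56.5 CPM in mbl-1(tm1563), a log2 fold change of -0.80 ± 0.24 (SE). In mbl-1(+) animals it had 34.0 and 58.2 CPM in the mec-7(u278) strain and 55.2 and 65.3 CPM in WT. Of 14 genes for neuronal and muscle splicing factors 5 were lower and 0 higher (7.25% and 7.95% of all tested genes). The median of this list, -0.58, was -0.95 without library 2 of the double mutant. exc-7, the worm ELAV homologue, had 14.2 and 20.8 CPM in the double mutant and 49.8 and 49.3 CPM in mbl-1(tm1563), and the mbl-1(tm1563) libraries were nearly alike. mec-8, an RNA-binding protein that acts on splicing in the TRNs, had a log2 fold change of -1.55 ± 0.52 (SE).

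In the DLK-1 pathway, the kinase cascade that the ubiquitin ligase RPM-1 holds down in axons, 2 of 9 genes were lower and 1 higher. Over all tested genes 7.25% were lower and 7.95% higher, so 1 higher gene of 9 is near the background. The p38 kinase gene pmk-3 had 17.6 and 19.4 CPM in the double mutant and 36.2 and 42.5 CPM in mbl-1(tm1563), and dlk-1 had 44.2 and 67.8 CPM in the double mutant and 95.2 and 131 CPM in mbl-1(tm1563). fsn-1, the F-box partner of RPM-1, was higher, with 53.3 and 45.3 CPM in the double mutant and 23.2 and 12.03 CPM in mbl-1(tm1563). Each of these genes had an edgeR adjusted p no lower than 0.308, and the pathway as a set was not tested.

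Intestine genes lay mainly on the lower side. Of 18 intestine genes 7 were lower and 0 higher at an unadjusted p under 0.05 (7.25% and 7.95% of all tested genes). The median of -1.11 was -0.58 without library 1 of the double mutant and -1.84 without its library 2. DESeq2 called 3 of the 18 lower, against 0.389% of all genes. lys-4, a lysozyme, had 76.6 and 123 CPM in the double mutant and 953 and 901 CPM in mbl-1(tm1563) (log2 fold change -3.18 ± 0.37 SE). cpr-1, a cathepsin B-like protease, had 130 and 203 CPM in the double mutant and 1041 and 1071 CPM in mbl-1(tm1563). elt-2, the GATA factor of the intestine, had 14.1 and 30.1 CPM in the double mutant and 65.7 and 81.2 CPM in mbl-1(tm1563). For all 3 genes the groups were separate.

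Among the C-type lectins, many of them secreted by the intestine and induced by bacteria, both directions occurred. At an unadjusted p under 0.05, 22 were lower and 7 higher while 83 tested members did not pass. Over all tested genes 7.25% were lower and 7.95% higher, so the share of higher lectins was near the background. DESeq2 called 6 lower and 1 higher, against 0.389% lower and 0.809% higher of all genes. clec-60 had 4.24 and 5.63 CPM in the double mutant and 64.8 and 73.4 CPM in mbl-1(tm1563). Of 26 tested genes of the intestinal innate response 4 were lower and 1 higher, against the same shares of all tested genes. The cytochrome P450, UGT and GST genes, which handle foreign compounds, had 14 lower and 9 higher of 149 tested, near the background in both directions. DESeq2 called 4 of the 149 higher and 0 lower, where it called 0.809% and 0.389% of all genes. Both of the cyp-35 genes named below are among them.

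Of 14 genes of the propionate shunt and vitamin B12 list 3 were lower and 0 higher (7.25% and 7.95% of all tested genes). metr-1, the methionine synthase that uses vitamin B12, had 176 and 242 CPM in the double mutant and 670 and 940 CPM in mbl-1(tm1563). mtrr-1, its reductase partner, had 75.3 and 128 CPM in the double mutant and 413 and 559 CPM in mbl-1(tm1563). Their log2 fold changes were -1.90 and -2.21, and in mbl-1(+) animals library 2 of WT had levels of both near those of mec-7(u278). For metr-1 the levels were 135 and 318 CPM in the mec-7(u278) strain and 935 and 359 CPM in WT. Of 35 tested genes of fatty acid desaturation, binding and oxidation 5 were lower and 1 higher, and the Δ9 desaturase gene fat-7 had 23.2 and 50.0 CPM in the double mutant against 212 and 186 CPM in mbl-1(tm1563).

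Neuropeptide-like and insulin-like genes were mixed. Of 61 tested nlp genes 15 were lower and 5 higher, where 7.25% of all tested genes were lower and 7.95% higher. nlp-40, an intestinal peptide of the defecation motor program, had 149 and 155 CPM in the double mutant and 367 and 441 CPM in mbl-1(tm1563). nlp-27, one of the antimicrobial-like peptides, had 139 and 58.8 CPM in the double mutant and 16.7 and 10.09 CPM in mbl-1(tm1563). Of 18 tested insulin-like genes 5 were higher and 2 lower, with a median of 1.55 that was -0.54 when at least 10 counts were required in every library and 2.55 without library 1 of mbl-1(tm1563). Of these, ins-24 had 2.97 and 2.54 CPM in the double mutant and 0.69 and 0.40 CPM in mbl-1(tm1563).

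The lists of germline genes and the vitellogenins had the highest medians and few members past the threshold. Over all tested genes 7.95% were higher and 7.25% lower at that threshold. All 29 tested msp genes were higher in both double mutant libraries than in both mbl-1(tm1563) libraries, with a median log2 fold change of 2.71, and 0 of 29 had an unadjusted p under 0.05. The same count was 0 of 6 for the vitellogenins (median 2.96) and 1 of 21 for oocyte and eggshell genes (median 2.93). For other sperm genes it was 2 of 46 (median 2.60). For germline meiosis genes it was 2 of 21 (median 1.93), near the share of all tested genes. Without library 1 of mbl-1(tm1563), the medians were 8.66 for msp genes, 7.501 for vitellogenins, 6.96 for oocyte and eggshell genes, 8.38 for other sperm genes and 4.27 for meiosis genes. Without its library 2 they were 1.70 for msp genes, 1.62 for other sperm genes and 1.18 for meiosis genes. Molting genes had 2 lower and 0 higher of 26 (median -1.68), and cuticle collagens 10 lower and 1 higher of 136 (median -1.298). Hedgehog-related and patched-related genes had 6 lower and 2 higher of 64 (median -1.50). The share of lower members in each of these 3 lists was near that of all tested genes. Without library 1 of the double mutant these 3 medians were -1.004, -0.63 and -0.86, without its library 2 they were -3.60, -2.91 and -3.04, and without library 1 of mbl-1(tm1563) that of the collagens was -0.70. Of 23 body wall muscle genes and of 15 tested heat shock genes 0 passed in either direction.

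**Figure D3:**
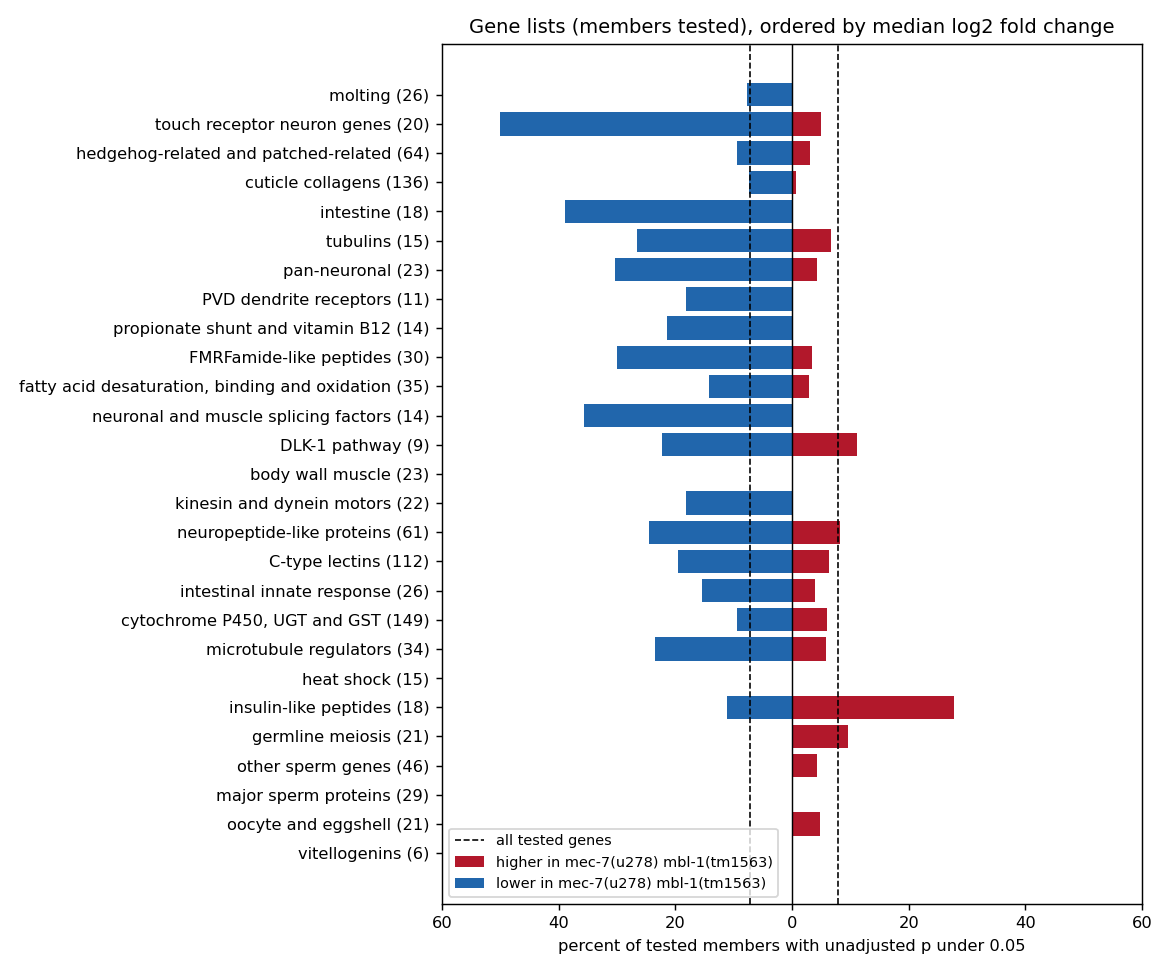
Percent of the tested members of each of 27 gene lists with an unadjusted edgeR p under 0.05, drawn to the left for members lower in the double mutant and to the right for members higher in it, with the number tested in parentheses. Dashed lines mark all tested genes, at 7.25% lower and 7.95% higher. TRN, intestine and splicing factor genes reach furthest left, and msp and vitellogenin genes have no bar.

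Position on the chromosomes divided the genes too. On chromosome X, 283 of 2129 tested genes were lower at an unadjusted p under 0.05 (13.3%) and 83 higher (3.90%), with a median log2 fold change of -0.68. On the autosomes 809 of 12907 tested genes were lower (6.27%) and 1116 higher (8.65%), with a median of 0.15. With 1 library removed at a time the median of X was between -0.92 and -0.52, but without library 2 of mbl-1(tm1563) more X genes were higher (3.56%) than lower (2.16%). Within 500000 bases of mec-7, 17 of 143 genes were lower and 3 higher, near the shares of X as a whole. The germline lists were high in the strain in which X genes were low, and their part in the X difference was not tested.

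The genes with the smallest p were named by rule, 10 in each direction, among genes of at least 5 CPM in a strain with separate groups and one direction in all 4 fits without a library. DESeq2 called all 20 of them, but on the same 4 libraries from which they were picked, so its calls are no independent check. The fit of 8 libraries called W01A11.1 and asp-12. Of the 10 higher genes, 8 were also higher in mec-7(u278) against WT at an unadjusted p under 0.05, and of the 10 lower genes 6 were also lower there. Over the 14477 genes tested in both comparisons, 635 were higher and 373 lower in mec-7(u278) against WT at that threshold.

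W01A11.1 had the smallest p of all. It lies on chromosome V at 6499224 to 6502428 and overlaps moc-2 on the other strand, which these unstranded counts cannot separate from it. It had 64.2 and 84.2 CPM in the double mutant and 0.32 and 0.40 CPM in mbl-1(tm1563), and in mbl-1(+) animals 94.2 and 124 CPM in the mec-7(u278) strain and 0.25 and 0.19 CPM in WT. All 4 libraries with u278 were above 60 CPM and all 4 without it were under 0.5 CPM. Its log2 fold change was 7.71 ± 0.36 (SE), with an adjusted p from 3.9e-31 to 0.656 over 10 alternatives. In mec-7(u278) against WT its adjusted p in edgeR was 0.0123.

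asp-12, an aspartyl protease gene on chromosome V at 8269210 to 8272056, was its mirror image. It had 6.997 and 8.17 CPM in the double mutant and 211 and 211 CPM in mbl-1(tm1563), and 4.99 and 6.15 CPM in the mec-7(u278) strain against 153 and 121 CPM in WT. The log2 fold change was -4.76 ± 0.25 (SE) in the comparison and -4.63 in mec-7(u278) against WT (edgeR adjusted p = 0.0476), and its adjusted p ranged from 3.5e-28 to 0.656 over 11 alternatives. The difference between the 2 backgrounds was -0.18 on the log2 scale with an adjusted p of 0.913.

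F56A4.3, on chromosome V at 2453414 to 2456147, had 672 and 1474 counts in the double mutant and 0 counts in both mbl-1(tm1563) libraries. Against a floor of 3 counts per library its level was at least 289-fold higher in the double mutant. It had 2327 and 2631 counts in mec-7(u278) and 0 in both WT libraries, so that presence went with the u278 strains in all 8 libraries, with an edgeR adjusted p of 0.0430 in mec-7(u278) against WT. The pseudogene WBGene00017496, at 2345676 to 2348123 on the same chromosome and picked after its values were seen, had the same pattern, with 63 and 204 counts in the double mutant and 0 in both mbl-1(tm1563) libraries.

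The remaining higher genes by rule include 2 cytochrome P450 genes. cyp-35C1 had 68.2 and 76.3 CPM in the double mutant and 9.39 and 5.22 CPM in mbl-1(tm1563), and cyp-35A3 had 16.42 and 21.8 CPM in the double mutant and 0.97 and 0.45 CPM in mbl-1(tm1563). F23A7.4 had 81.2 and 77.9 CPM in the double mutant and 8.10 and 3.08 CPM in mbl-1(tm1563), and its neighbour F23A7.8 on X, added later, 74.7 and 46.0 CPM in the double mutant and 4.60 and 0.89 CPM in mbl-1(tm1563). For nspa-5, a short gene of a multicopy family, and pud-1.1, which has near-identical copies, reads could be split between copies, so their log2 fold changes of 5.34 and 5.53 are uncertain. F44E7.5 and WBGene00007120, which has no symbol in the annotation, had log2 fold changes of 2.19 and 2.43.

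Among the lower genes by rule were proteases and lysozymes. cpr-4, a further cathepsin B-like protease, had 69.3 and 67.3 CPM in the double mutant and 467 and 553 CPM in mbl-1(tm1563), a log2 fold change of -2.86 ± 0.24 (SE). lys-6 had 1.27 and 0.67 CPM in the double mutant and 20.5 and 17.9 CPM in mbl-1(tm1563). msra-1, a methionine sulfoxide reductase gene, had 40.3 and 70.6 CPM in the double mutant and 535 and 556 CPM in mbl-1(tm1563). In mbl-1(+) animals msra-1 divided the WT libraries, with 80.2 and 66.9 CPM in the mec-7(u278) strain and 547 and 44.1 CPM in WT. asp-13, kel-8 and ZC328.3 had log2 fold changes of -1.88, -1.90 and -1.64.

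**Figure D4:**
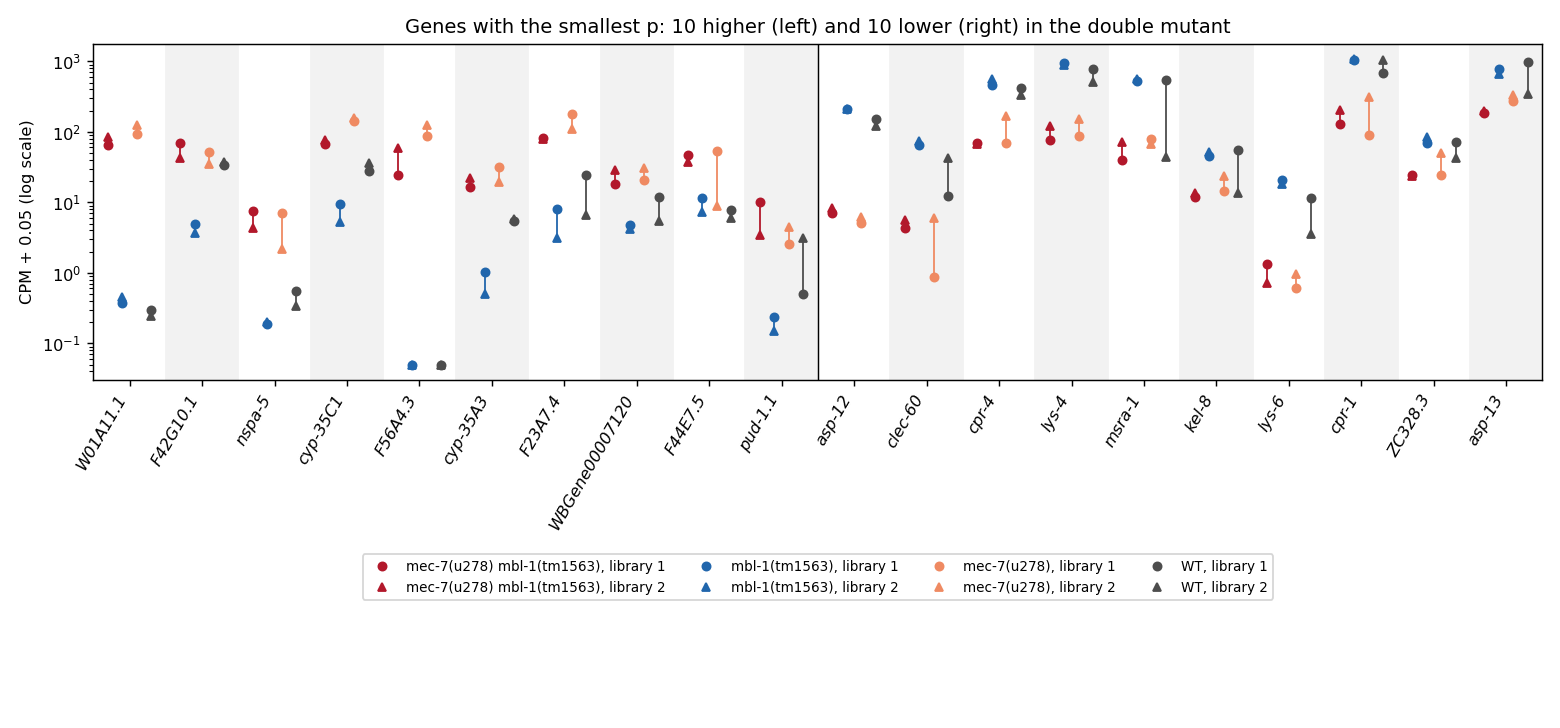
CPM plus 0.05 (log axis) of the 20 genes named by rule in the 8 libraries of the 4 strains, with circles for library 1 and triangles for library 2. W01A11.1 and F56A4.3 are high in both strains with u278 and at or near the bottom in both strains without it, and asp-12 has the reverse order.

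A further count, made after the values were seen, used all 8 libraries. In 1525 of 15086 tested genes (10.1%) all 4 libraries with u278 lay above all 4 without it, and in 1650 (10.9%) below. A gap of more than 2-fold between the 2 sets of libraries was found in 52 genes above (0.345%) and 37 below (0.245%). For this gap 0.05 CPM was added to every level. Some of these genes were near the floor, such as ttr-3, with 0.98 and 0.75 CPM in the double mutant and 0 and 0.10 CPM in mbl-1(tm1563). Of the 52 above, 17 lay within 100000 bases of another of the same direction, and of the 37 below 16 did, and the share over all tested genes was not computed. The genes below include the adjacent lysozyme genes lys-4, lys-5 and lys-6 on chromosome IV at 11621429 to 11627947, the adjacent lectin genes clec-70 and clec-71, and 7 genes on chromosome I between 11342085 and 11480071, among them the nuclear receptor genes nhr-73 and nhr-74. lys-5 had 0.58 and 1.63 CPM in the double mutant and 22.2 and 22.4 CPM in mbl-1(tm1563). nhr-74 had 0.47 and 0.44 CPM in the double mutant and 2.99 and 3.53 CPM in mbl-1(tm1563). rpl-39, a ribosomal protein gene, was among the genes above, with 678 and 722 CPM in the double mutant and 169 and 74.2 CPM in mbl-1(tm1563), and 811 and 831 CPM in the mec-7(u278) strain and 223 and 102 CPM in WT. Differences at other loci between the strains cannot be told apart from u278 here. The share of unmapped reads was also higher in all 4 libraries with u278 than in all 4 without it, and its part was not tested.

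Of 14477 genes tested in both comparisons, 1052 were higher in the mbl-1(tm1563) background at an unadjusted p under 0.05. In mec-7(u278) against WT 635 of the 14477 were higher. Higher in both were 146, which is 13.9% of the 1052 and 22.99% of the 635. On the lower side 159 were shared, 14.8% of 1071 and 42.6% of 373. Genes past the threshold in opposite directions numbered 0. The strain with u278 had the higher msp sums in both comparisons, and the part of timing in the shared genes was not tested.

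Whether the effect of u278 differs with mbl-1 was tested with the interaction term. edgeR called 0 genes, with the lowest adjusted p at 0.908, and 260 had an unadjusted p under 0.05 (1.67% of 15602). DESeq2 called 3, haf-6, F42G10.1 and gpr-2. F42G10.1, on chromosome X at 10018046 to 10022166, had 69.3 and 42.5 CPM in the double mutant and 4.83 and 3.68 CPM in mbl-1(tm1563), against 50.9 and 34.9 CPM in the mec-7(u278) strain and 34.0 and 37.2 CPM in WT. The mbl-1(tm1563) strain alone was low. haf-6, an ABC transporter gene in antisense to Y48G8AL.7, which the counts cannot separate from it, was at 6.09 and 7.18 CPM in the double mutant and 9.29 and 9.15 CPM in mbl-1(tm1563), against 46.0 and 69.5 CPM in the mec-7(u278) strain and 10.3 and 11.2 CPM in WT, so that mec-7(u278) alone was high.

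gpr-2, a regulator of spindle forces with a close copy in gpr-1, had 23.7 and 24.2 CPM in the double mutant and 21.5 and 13.3 CPM in mbl-1(tm1563), and 21.03 and 18.7 CPM in the mec-7(u278) strain against 1.70 and 2.61 CPM in WT. gpr-1 was at 12.58 and 9.36 CPM in the double mutant and 7.55 and 5.47 CPM in mbl-1(tm1563), and at 8.77 and 7.58 CPM in the mec-7(u278) strain and 9.23 and 7.48 CPM in WT. Y55B1BR.6, on chromosome III, was low in the double mutant alone, with 1.09 and 1.15 CPM there and 10.6 and 17.5 CPM in mbl-1(tm1563), and 8.43 and 14.8 CPM in the mec-7(u278) strain and 18.7 and 16.12 CPM in WT. Its interaction was -3.06 on the log2 scale with an adjusted p of 0.908. Each of these patterns set 1 strain apart from the other 3, whichever strain that was. The other genes named by rule were cyp-35A3 (interaction 2.53) and the low gene WBGene00013155 (3.64).

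A pair of neighbouring saposin-like genes on X, spp-9 and spp-21, picked after their values were seen, had nearly all of their counts in mbl-1(tm1563). spp-21, at 11490130 to 11490494, had 0 and 0 counts in the double mutant and 109 and 115 counts in mbl-1(tm1563), and 0 in all 4 libraries of mec-7(u278) and WT. Against a floor of 3 counts per library it was at least 47.1-fold lower in the double mutant. spp-9 had 0 and 2 counts in the double mutant and 292 and 202 counts in mbl-1(tm1563), with 1 and 0 counts in mec-7(u278) and 10 and 6 counts in WT. WT was thus nearer to the double mutant than to mbl-1(tm1563) for both genes. Of all 46778 genes counted, 32 had at least 20 counts in both double mutant libraries and at most 3 in both mbl-1(tm1563) libraries. The reverse held for 5, and both counts were chosen after the values were seen. The msp sums were also higher in both double mutant libraries, and the part of timing in these counts was not tested.

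**Figure D5:**
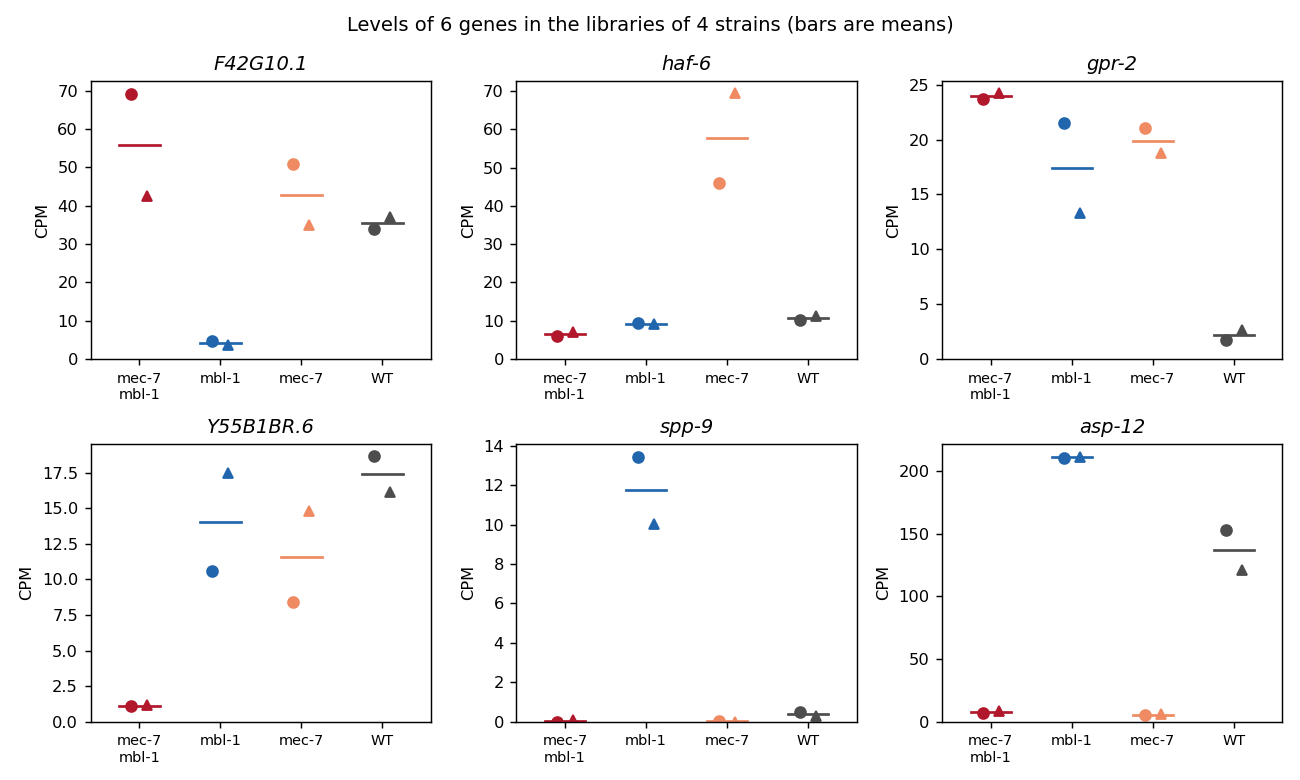
CPM (linear axis from 0) of 6 genes in the double mutant, mbl-1(tm1563), mec-7(u278) and WT, from left to right, with circles for library 1, triangles for library 2 and bars for the mean of the 2. F42G10.1 is low in mbl-1(tm1563), haf-6 high in mec-7(u278), gpr-2 low in WT, Y55B1BR.6 low in the double mutant and spp-9 high in mbl-1(tm1563), while asp-12 follows u278.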

How the data were processed

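The authors extracted RNA from L4 animals with TRIzol, with 2 biological replicates for each strain, aligned the paired reads with STAR (version 2.7.10 and build WBcel235 in the submitters' processing notes) and deposited whole-number counts per gene, not normalized. The deposited tables hold columns of counts without strand and for either strand. The labels call the libraries strand-specific, but the second strand held 50.8% to 51.3% of the stranded counts, so the unstranded counts were used. Reads outside genes, ambiguous or at several places (the rows that name no gene) were left out, and unmapped reads were 1.09% to 2.86%. The replicate number is in the file names only.

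Counts were tested with edgeR 4.0.16 (R 4.3.3): TMM, filterByExpr, quasi-likelihood test, Benjamini-Hochberg adjustment, threshold 0.05. The interaction was fitted over 8 libraries. Alternatives were RLE, TMM without stage-linked lists, DESeq2 1.42.0, no filter, at least 10 counts in every library, one fit of 8 libraries, a replicate block, and leaving out 1 library at a time. With 2 libraries a strain an exact permutation p cannot go below 0.33. Gene positions are from the WBcel235 annotation, which held 46603 of 46778 gene IDs.

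Genes named were mec-7, mbl-1, the TRN list, 10 per direction by smallest p (at least 5 CPM in a strain, groups apart, one direction in every fit without a library), up to 2 per list and direction, and 3 per direction for the interaction. Genes described beyond these were chosen after their values were seen. The members and lists were chosen with earlier results of these data known, and the lists are not independent of them. No chance test was made for lists.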

Additional observations from a re-analysis of the deposited data

Results flagged for a closer look

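haf-6 was high in mec-7(u278) alone, and the order of the strains differed between the 2 backgrounds. Both double mutant libraries (6.09 and 7.18 CPM) lay below both mbl-1(tm1563) libraries (9.29 and 9.15 CPM), whereas both mec-7(u278) libraries (46.0 and 69.5 CPM) lay above both WT libraries (10.3 and 11.2 CPM). In the mbl-1(tm1563) background 76.4% of the tested genes had groups that did not overlap, so a reversal of the effect is not shown. The difference between the log2 fold changes was -2.90, which did not pass edgeR's interaction test (adjusted p = 0.908) and passed that of DESeq2 (adjusted p = 1.2e-05). haf-6 lies in antisense to Y48G8AL.7, which unstranded counts cannot separate from it.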

How the results depend on the processing

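At an adjusted p under 0.05 the double mutant against mbl-1(tm1563) gave 0 genes in edgeR, and also 0 with RLE, with TMM without stage-linked lists, with no filter, with at least 10 counts in every library and with the replicate block. It gave 191 with DESeq2 and 2 in the fit of 8 libraries. With a library left out it gave between 0 and 2094, the highest without library 1 of mbl-1(tm1563). The lone library of a strain is then assumed to vary like the other strain. At an unadjusted p under 0.05 the count of 2293 was 3524 with DESeq2, 4400 in the fit of 8 libraries and 3005 with the replicate block. It was 793 without library 1 of the double mutant, 3546 without its library 2, 4461 without library 1 of mbl-1(tm1563) and 1130 without its library 2. The share of these genes on the higher side, 52.3%, was 60.3% with RLE, and without single libraries it was between 20.3% and 78.6%. The cause of these differences was not tested.

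For the interaction, 0 genes were called in edgeR under each alternative and 3 with DESeq2. The 260 genes at an unadjusted p under 0.05 were 430 with DESeq2 and 456 with the replicate block. Without single libraries there were between 79 and 2405, with 79 without library 2 of WT, 82 and 2042 without library 1 and library 2 of the double mutant, and 2405 and 111 without library 1 and library 2 of mbl-1(tm1563). Whether the replicate numbers pair the libraries was not established. With 2 numbers and no label that ties them, the differences between replicates correlated at 0.28 between the double mutant and mbl-1(tm1563), at 0.375 and 0.65 between these strains and mec-7(u278), and between -0.497 and -0.28 for the 3 pairs with WT. With the replicate block the msp and vitellogenin medians of 2.71 and 2.96 were 4.85 and 4.49, and those of other sperm and of oocyte and eggshell genes, 2.60 and 2.93, were 4.03 and 4.46.

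Of 445 alternative values of the log2 fold changes of 41 named genes, 2 had the other sign. Both were of mec-6, at -0.17 without library 1 of the double mutant and -0.02 without library 2 of mbl-1(tm1563), and without single libraries it ranged from -0.17 to 0.19. Of 297 alternative list medians, 34 moved by more than the spread between libraries and 6 had the other sign, in 4 lists. For the C-type lectins the median of -0.36 was 0.17 with DESeq2, and for heat shock genes that of 0.18 was -0.18 with the replicate block. Depth was even. The chi-square per degree of freedom between the libraries of a strain was 244 in the double mutant and 136 in mbl-1(tm1563), so the spread between libraries, more than counting error, limits these values.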
